A study of Mus musculus with 2 samples.

Results

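Ubiquitin-conjugating enzymes (E2), the activating enzymes (E1) that load them and the cullins, which are scaffolds of large ubiquitin ligases (E3), were followed in newly made and in preexisting RNA of mouse embryonic stem cells. The members were the protein-coding transcripts, by GENCODE M21, of genes whose symbol begins with Ube2, names an E1 of the Uba series or names a cullin, together with Rbx1, Skp1a and Skp2, the partners of the cullins. The annotation held 167 such transcripts of 53 genes. The deposited table held 153 of them, among 49490 protein-coding transcripts of 21587 genes in all, and the other 14 were not analysed here. The name pattern also took in Ube2cbp, which is known as an E3 ligase rather than an E2.

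Ubiquitin reaches its target proteins by a relay. An E1 activates ubiquitin with ATP and hands it to an E2, and an E3 brings the loaded E2 to the protein to be modified. In a cullin-RING ligase, the cullin holds the RING protein Rbx1, which binds the E2, and an adaptor such as Skp1, which in turn holds a substrate receptor such as the F-box protein Skp2. The ubiquitin-like proteins NEDD8, SUMO, ISG15 and UFM1 have E1 and E2 enzymes of their own, and attachment of NEDD8 to a cullin switches its ligase on. Proteins that carry ubiquitin are broken down by the proteasome or changed in activity or place, and in embryonic stem cells this relay runs through the cell cycle and the turnover of pluripotency factors.

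The cells were wild-type (WT) DTCM23/49 XY mouse embryonic stem cells, depleted of feeder cells and grown in serum with leukemia inhibitory factor. They received 200 µM 4-thiouridine (4sU), a uridine analogue that enters RNA while it is made, for 10 min. RNA with 4sU was biotinylated and bound to streptavidin beads (labeled RNA), the RNA left in the supernatant was kept (unlabeled RNA), and each was sequenced as 1 library, both of replicate 1. Both libraries share genotype, medium and 4sU treatment, the title of the second calls it total RNA while its description calls it preexisting RNA, and it was used as unlabeled RNA. Since a pool has 1 library, no difference has a replicate check, no test was made, and genes and transcripts are not replicates. The authors deposited an exon and an intron level per transcript, called TPM, in columns that sum to 10 times a usual TPM total. TPM below means this unit, which is per length, so that levels of different genes can be set side by side. The files hold no counts, and the depth behind each value is therefore unknown. In such bulk RNA, fewer cells with a transcript and fewer copies per cell cannot be told apart.

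All 10 markers of embryonic stem cells were present in both libraries, where they summed to 11457 TPM in labeled and 15477 TPM in unlabeled RNA. The lowest of them in unlabeled RNA was Klf2 with 40.1 TPM. The 6 fibroblast markers, which feeder cells would carry, summed to 8.72 and 20.9 TPM, with Col3a1 and Lum at 0 in both libraries. Primitive endoderm markers summed to 7.09 and 14.3 TPM with Gata6 and Sox17 at 0, and the mesoderm markers T and Mixl1 to 0.99 and 3.71 TPM. Of the neural markers, Sox1 was at 0.76 and 1.56 TPM and Pax6 at 68.7 and 70.5 TPM.

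The exon ratio of a gene was the log2 of its labeled over its unlabeled exon TPM, summed over its protein-coding transcripts, relative to the median of all 14127 genes with a mean exon TPM above 1 and a value above 0 in both libraries. The median gene had a labeled level of 0.837 times its unlabeled level. A gene whose RNA is replaced quickly puts more of it into the labeled pool than one whose RNA is long-lived. Of the 53 member genes, 49 could be compared in this way. The other 4 were Uba7, the E1 of ISG15, with 0.23 TPM in labeled and 0.09 TPM in unlabeled RNA, Ube2ql1 with 0.14 TPM in labeled RNA and listed at 0 in unlabeled RNA, and Ube2dnl1 and Ube2dnl2, listed at 0 in both.

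Most members held a smaller share of labeled RNA than the median gene. The exon ratio was below the median in 39 of 49 member genes, or 79.6%, where 50.0% of all genes are below it by construction. The median of the members was -0.52 (quartiles -1.10 and -0.10), beside quartiles of -0.68 and 0.84 over all genes. In 13 members, or 26.5%, the exon ratio was at least 2-fold below the median, which 14.8% of all genes were. These were Ube2e2, Cul3, Ube2v1, Uba6, Ube2cbp, Ube2q2, Cul4b, Ube2h, Cul7, Cul5, Ube2g1, Ube2d1 and Uba1. At least 2-fold above it were 4 members, or 8.16%, beside 21.9% of all genes, namely Ube2u, Ube2t, Cul9 and Rbx1. Ube2u and Cul9 had mean exon levels of 1.58 and 1.69 TPM, close to the minimum of 1.

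**Figure D1:**
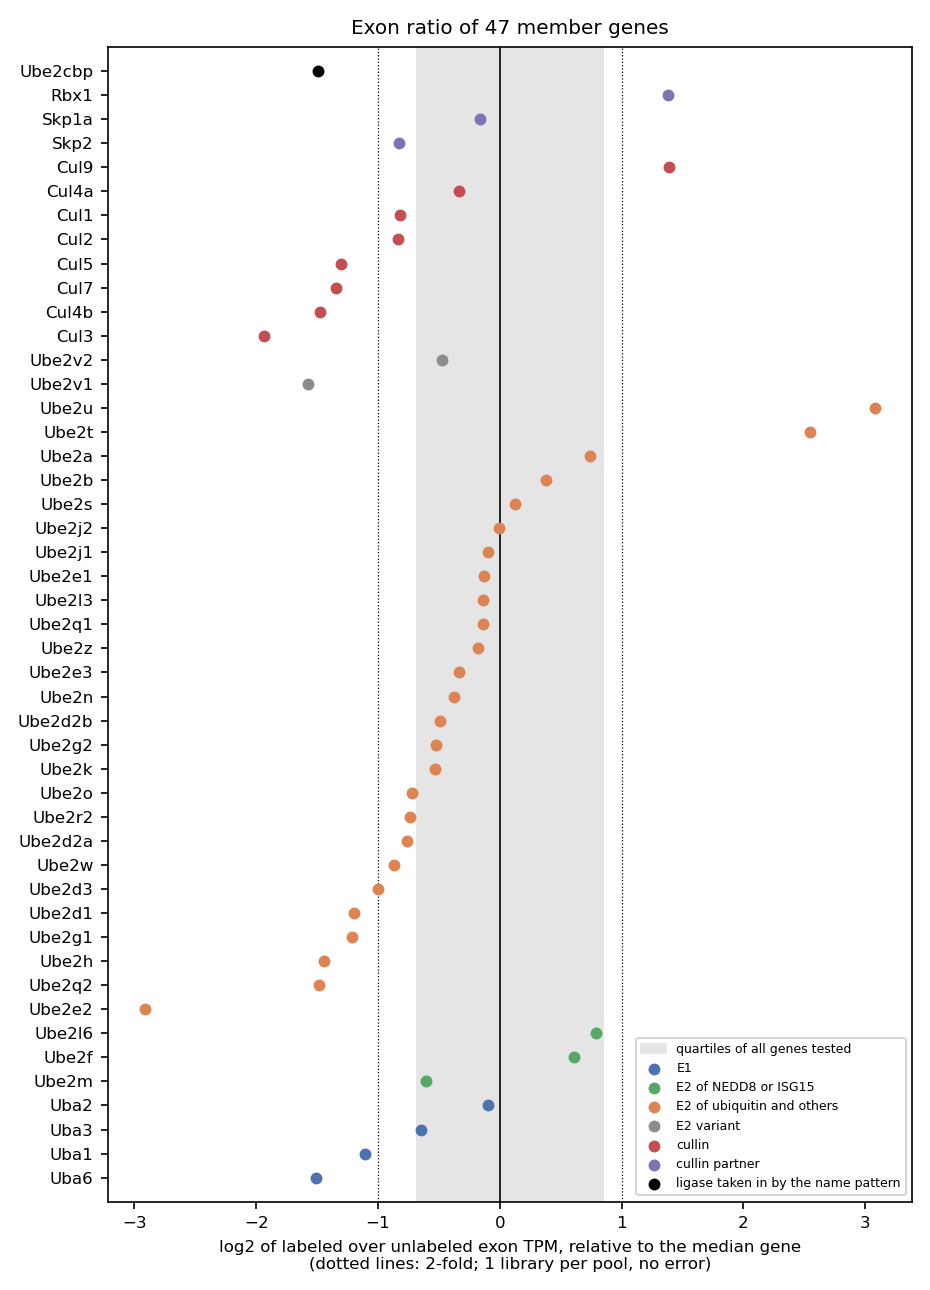
Exon ratio (log2 of labeled over unlabeled exon TPM, relative to the median gene) of 47 member genes, with 1 point per gene colored by role, the quartiles of all genes in grey and dotted lines at 2-fold. The points reach from -2.92 (Ube2e2) to 3.08 (Ube2u), and 38 of them lie left of 0.

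Exon ratios also moved with expression level and gene length, and the members differed from other genes in both. Their median mean exon level was 222 TPM, beside 38.1 TPM over all genes. Among genes between 100 and 1000 TPM, the median exon ratio was -0.56 in 24 members and -0.38 in all genes, and above 1000 TPM it was -1.0 in 7 members and -0.40 in all genes. Between 10 and 100 TPM it was -0.49 in 15 members and 0.04 in all genes, so that members were lower within each of these ranges. Only 3 members lay between 1 and 10 TPM, with a median of 1.39 beside 0.60 for all genes there. The median unspliced length of the highest transcript was 30513 bases in members and 18167 bases in all genes. Across the 49 members, the exon ratio and the log10 unspliced length had a Pearson's r of -0.43 and a Spearman's rho of -0.54, and across all 14127 genes r was -0.24 and rho -0.28. Spliced, the highest transcript was shorter in members, with a median of 1792 bases beside 2329 bases in all genes. The exon ratio and the log10 spliced length had an r of -0.21 and a rho of -0.32 across members. Across all genes these were -0.25 and -0.29. These correlations are across genes within the same pair of libraries, and genes are not independent replicates. The share of U in the spliced sequence, the base that 4sU replaces, had a median of 26.3% in members and 24.1% in all genes, with an r of 0.07 to the exon ratio across members.

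Of the E1 enzymes, both of those that activate ubiquitin were more than 2-fold below the median gene. Uba1, the main E1 of ubiquitin, had 446 TPM in labeled and 1145 TPM in unlabeled RNA, an exon ratio of -1.10, which was -0.96 and short of 2-fold when centred on the summed exon TPM. Uba6, the other E1 of ubiquitin, had 184 and 623 TPM, an exon ratio of -1.51. Uba3, the catalytic subunit of the NEDD8 E1, lay between these and the median gene, with 299 TPM in labeled and 557 TPM in unlabeled RNA (-0.64). Uba2, the catalytic subunit of the SUMO E1, had 632 and 808.5 TPM (-0.10) and was close to the median gene.

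The E2s of NEDD8 and ISG15 lay on both sides of the median gene, and none reached 2-fold. The pair of NEDD8 E2s was split. Ube2m, which works with Rbx1, had 55.8 TPM in labeled and 102 TPM in unlabeled RNA (-0.61), and Ube2f, which works with the relative of Rbx1 on Cul5, had 249.6 and 195 TPM (0.61). Ube2f was thus the higher of the pair in both libraries. Ube2l6, the E2 of ISG15, had 22.6 and 15.7 TPM (0.79).

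The Ube2d family supplies ubiquitin to a wide range of RING ligases, and its members span a wide range of levels. Ube2d3 had the highest level of all members, with 6286 TPM in labeled and 15016 TPM in unlabeled RNA, and its exon ratio of -1.0 was just short of 2-fold below the median gene. Its 10 coding transcripts lay between -1.15 and -0.71. Ube2d2a had 314 and 637 TPM (-0.76), and Ube2d1 had 69.8 and 192 TPM (-1.20). Ube2d2b, a copy with 1 exon and hence no intron level, had 14.6 and 24.5 TPM (-0.49). All members of the family were below the median gene. Ube2a and Ube2b, the counterparts of yeast Rad6 that mark histone H2B and act in DNA damage tolerance, were above it. Ube2a had 595 TPM in labeled and 426 TPM in unlabeled RNA (0.74), and Ube2b had 435 and 398 TPM (0.38).

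Since such relatives encode nearly the same protein, their coding sequences are shown to let a reader see how far reads can tell them apart. The lines give the first 90 coding bases on the coding strand, read from the GENCODE M21 transcripts. Ube2d3 (chr3:135438234-135466058, plus strand) is in lower case, and capitals in Ube2d1 (chr10:71254980-71285262, minus strand) and Ube2d2b (chr5:107830099-107831776, plus strand) mark the bases that differ from it.
Ube2d3: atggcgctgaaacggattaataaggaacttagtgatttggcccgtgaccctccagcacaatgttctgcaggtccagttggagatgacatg
Ube2d1: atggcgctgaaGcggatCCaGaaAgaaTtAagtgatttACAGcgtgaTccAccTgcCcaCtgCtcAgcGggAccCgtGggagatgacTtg
Ube2d2b: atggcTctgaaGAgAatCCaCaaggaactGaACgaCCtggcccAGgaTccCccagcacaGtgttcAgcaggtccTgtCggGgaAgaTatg
In the same way, capitals in Ube2a (chrX:36874295-36884222, plus strand) mark the bases that differ from Ube2b (chr11:51985497-52000484, minus strand).
Ube2b: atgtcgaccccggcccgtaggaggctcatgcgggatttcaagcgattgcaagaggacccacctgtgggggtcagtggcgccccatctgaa
Ube2a: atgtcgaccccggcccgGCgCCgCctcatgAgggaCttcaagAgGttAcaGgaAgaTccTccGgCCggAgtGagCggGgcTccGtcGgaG

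In these windows 23 bases of Ube2d1, 23 of Ube2d2b and 25 of Ube2a differ from the relative they were set against. Over the whole coding sequence, Ube2d1 was identical to Ube2d3 in 77.3% of 444 bases with no identical run above 14 bases, and Ube2a to Ube2b in 77.6% of 459 bases with no run above 17. The closest pair was Ube2d2a and Ube2d2b, identical in 92.6% of bases with a longest run of 32. The longest run, 42 bases, was between Ube2d2a and Ube2d3, identical in 86.3%. No run within these families thus reached 50 bases. Other genes of the annotation shared more with some members. Of the 53 genes, 26 shared no 50-base word of their spliced transcripts with any other gene, and 9 shared 10% or more. In Ube2v1 the share was 73.5%, with Gm20431, a protein-coding gene, as the main partner. The next were Ube2q2 with 18.9%, Ube2l3 with 16.1% and Ube2d2a with 15.9%, each with a processed pseudogene. How reads from these words were divided between the copies was not tested, and these levels are uncertain to that extent.

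**Figure D2:**
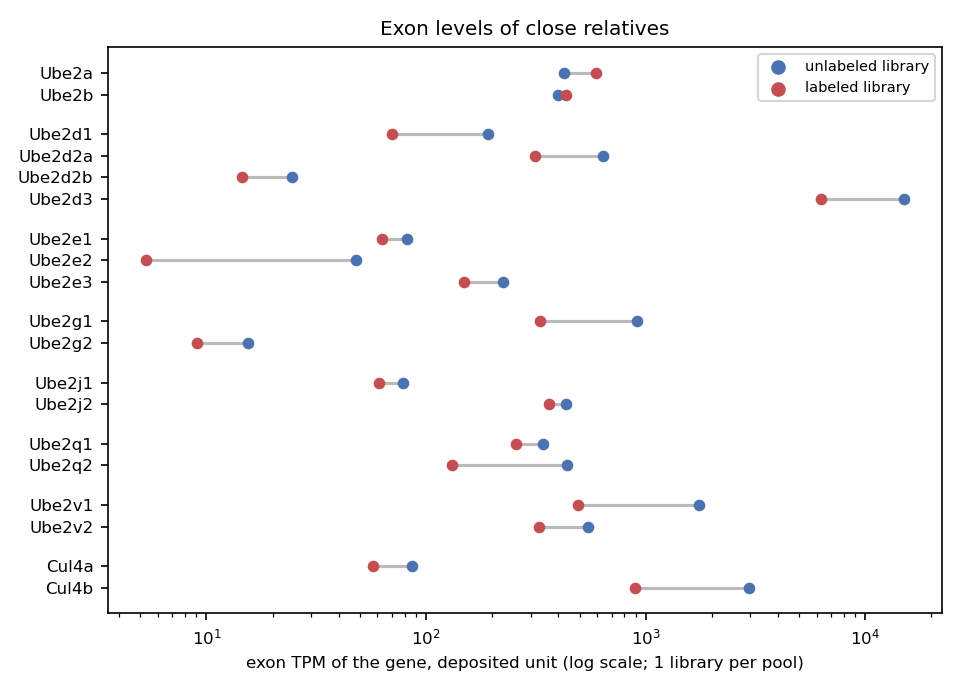
Exon TPM in the deposited unit (log axis) of member genes in groups of close relatives, in the unlabeled library (blue) and the labeled library (red), with 1 library per pool and no error bars. Ube2a and Ube2b are the only genes shown whose labeled level exceeds the unlabeled level, and Ube2e2 has the longest line, from 47.8 to 5.30 TPM.

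In the Ube2e family, 2 members were near the median gene and Ube2e2 was far below it. Ube2e1 had 62.8 TPM in labeled and 82.1 TPM in unlabeled RNA (-0.13), and Ube2e3 had 149.6 and 225 TPM (-0.33). Ube2e2 (chr14:18586888-18893414, minus strand, for its highest transcript) had 5.30 and 47.8 TPM, an exon ratio of -2.92 and the lowest of all members. Of its 6 coding transcripts, 1 was listed at 0 in labeled RNA and the other 5 were at 0.60 to 1.43 TPM there and at 5.37 to 13.7 TPM in unlabeled RNA. When transcripts of every biotype were summed, its exon ratio was -1.70. The coding transcripts carried 21.6% of the gene's labeled and 53.5% of its unlabeled exon level.

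Other E2 pairs also differed in exon ratio. Ube2g1, an E2 that extends ubiquitin chains, had 329 TPM in labeled and 912 TPM in unlabeled RNA (-1.21), and Ube2g2, an E2 of the degradation of proteins from the endoplasmic reticulum, had 9.03 and 15.5 TPM (-0.52). Ube2q2 had 131 and 436.5 TPM (-1.48), and Ube2q1 had 258 and 339.9 TPM (-0.14). In both pairs the gene with the higher unlabeled level was the lower in exon ratio. Ube2j1 and Ube2j2, which are anchored in the membrane of the endoplasmic reticulum, were both near the median gene, with 61.3 and 78.3 TPM for Ube2j1 (-0.10) and 361 and 432 TPM for Ube2j2 (-0.00). The variants Ube2v1 and Ube2v2 lack the catalytic cysteine and build ubiquitin chains together with Ube2n. Ube2v1 had 493 and 1753 TPM (-1.57), Ube2v2 327 and 544 TPM (-0.47) and Ube2n 93.4 and 145 TPM (-0.38). The level of Ube2v1 is subject to the words that it shares with Gm20431.

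Among the remaining E2s, Ube2t and Ube2u were more than 2-fold above the median gene. Ube2t (chr1:134971279-134974159, plus strand, for its highest transcript), the E2 of the Fanconi anemia pathway of DNA crosslink repair, had 269 TPM in labeled and 55.1 TPM in unlabeled RNA, an exon ratio of 2.54. Its exon ratio was 1.82 when transcripts of every biotype were summed. Ube2s, which extends chains for the anaphase-promoting complex, had 297 and 325 TPM (0.13). Ube2k, an E2 able to build free chains, had 3616 and 6258 TPM (-0.53), the second highest level of the members. Ube2h had 27.9 and 90.96 TPM (-1.45). Ube2l3, the E2 of the HECT and RBR ligases, had 145 and 190.2 TPM (-0.14). Ube2z, which is loaded by Uba6, had 54.5 and 73.7 TPM (-0.18), and thus lay nearer to the median gene than its E1. Ube2o, an E2 and E3 in 1 chain, had 26.3 and 51.7 TPM (-0.72), and Ube2r2, an E2 of the cullin-RING ligases, had 82.7 and 164 TPM (-0.73). Ube2w, which attaches ubiquitin to the amino terminus, had 28.0 and 60.9 TPM (-0.87). Ube2u, at 2.77 and 0.39 TPM (3.08), had the highest exon ratio at a very low level, and the ligase Ube2cbp was at 2.97 and 10.0 TPM (-1.49). Of the 26 E2s of ubiquitin that could be compared, 21 were below the median gene, where 50.0% of all genes are. At least 2-fold below it were 5, or 19.2%, near the 14.8% of all genes, and 2 were at least 2-fold above it, or 7.69%, beside 21.9%.

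The cullins had a median exon ratio of -1.07 over 8 genes, lower than that of the E1s (-0.64 over 5) and of the E2s of ubiquitin (-0.44 over 26). Of the 8 cullins, 7 were below the median gene, beside 50.0% of all genes, and 4 of them at least 2-fold, beside 14.8%. Cul3 (chr1:80266823-80340311, minus strand, for its highest transcript), the scaffold that takes BTB proteins as substrate receptors, had 522 TPM in labeled and 2390.1 TPM in unlabeled RNA. Its exon ratio of -1.94 was 3.83-fold below the median gene, and its coding transcripts above 10 TPM lay between -2.07 and -1.73. Cul4b had 894 and 2964 TPM (-1.47). Its relative Cul4a had 57.1 and 86.0 TPM (-0.33), and both use Ddb1 as their adaptor. Cul4b was the higher of the pair in both libraries and the lower in exon ratio. Cul5, the scaffold for SOCS-box receptors, had 177 and 522 TPM (-1.30). With transcripts of every biotype summed, its exon ratio was -0.735 and no longer 2-fold below the median gene. Cul1, the scaffold of the SCF ligases, had 350.4 and 739 TPM (-0.82), and Cul2, the scaffold for the VHL receptor, had 218 and 467 TPM (-0.84). Cul1 and Cul2 were nearly alike in exon ratio and short of 2-fold. Cul7 had 7.46 and 22.6 TPM (-1.34). Cul9 had 2.32 and 1.06 TPM (1.39), so that the only cullin above the median gene was also the lowest in level.

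The partners of the cullins lay on both sides of the median gene, with 2 of 3 below it, beside 50.0% of all genes. Rbx1 (chr15:81466296-81476369, plus strand), the RING subunit of these ligases, had 115 TPM in labeled and 52.6 TPM in unlabeled RNA and was 2.61-fold above the median gene (1.38). In unlabeled RNA its level was below those of Cul1, Cul2, Cul3, Cul4a, Cul4b and Cul5, the nearest of which was Cul4a with 86.0 TPM. Skp1a, the SCF adaptor, had 2098 and 2804 TPM (-0.16), the highest level among cullins and partners in labeled RNA. Skp2, the F-box protein that brings the cell cycle inhibitor p27 to the SCF ligase, had 302 and 638 TPM (-0.82), the same exon ratio as Cul1 to 2 decimals.

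Introns gave another view of the same genes, because intron sequence is lost soon after it is made. The intron ratio was computed as the exon ratio was, from the intron levels of the highest transcript of each gene, relative to the median of 12781 genes, in which the labeled intron level was 4 times the unlabeled one. All 48 members with intron levels had more intron in labeled than in unlabeled RNA, as had 97.3% of all genes. The median intron ratio of the members was 0.27 (quartiles -0.28 and 0.64). It was above the median gene in 28 of 48, or 58.3%, beside 50.0% of all genes. At least 2-fold above it were 4 members, or 8.33%, beside 9.61% of all genes, and at least 2-fold below it were 3, or 6.25%, beside 10.7%. The members' intron ratios were therefore close to those of genes at large, while their exon ratios were lower.

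Among the members with a higher intron than exon ratio, the gap between both was widest in Cul3. Its introns were at 29.6 TPM in labeled and 3.94 TPM in unlabeled RNA, an intron ratio of 0.91, beside its exon ratio of -1.94. These intron levels are those of the highest transcript of Cul3, with a mean exon level of 552 TPM. A coding transcript of Cul3 with 3 exons and 534 TPM had introns at 28.9 and 15.9 TPM. Its intron ratio was -1.13 relative to the median transcript, and that of the remaining coding transcript was 0.87. Cul5 had introns at 35.6 and 5.58 TPM (0.67), Cul2 at 36.5 and 5.51 TPM (0.73) and Cul1 at 31.1 and 5.14 TPM (0.59). These cullins and Cul4b (0.15) were thus below the median gene in exons and above it in the introns of their highest transcripts. The other coding transcripts of Cul4b had intron ratios of -0.16 and -0.20 relative to the median transcript. By their highest transcripts, the intron ratios of Cul4a (-0.84), Cul7 (-0.54) and Cul9 (-0.18) were below the median gene. Above the median gene were 5 of 8 cullins, beside 50.0% of all genes. Uba6 had introns at 23.3 and 3.70 TPM (0.66). Over the 8 cullins, the intron ratio exceeded the exon ratio by a median of 1.49 on the log2 scale, beside 0.91 over the 48 members and 0.0038 over all genes. An exon ratio below and an intron ratio above the medians were found in 24 of 48 members, or 50%, and in 27.3% of all genes. Rbx1 was the reverse, with introns at 28.0 and 10.7 TPM, an intron ratio of -0.61 and an exon ratio of 1.38. Ube2t had introns at 24.5 and 3.77 TPM (0.70) in its highest transcript and by that transcript was above the median gene in both. Its longer coding transcript, with 7 exons, had introns at 43.8 and 28.1 TPM, or -1.35 relative to the median transcript. The side of Ube2t in introns thus depended on the transcript. Across the 48 members the exon and the intron ratio had an r of -0.01 and a rho of -0.04.

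**Figure D3:**
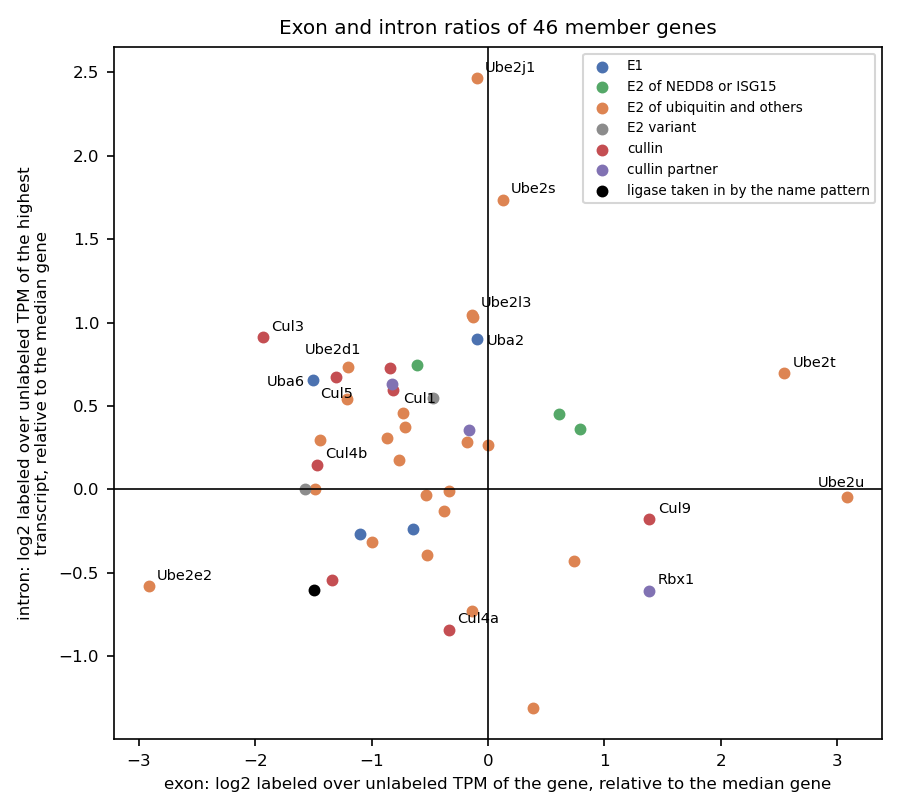
Exon ratio of the gene (x axis) against intron ratio of its highest transcript (y axis), both as log2 of labeled over unlabeled TPM relative to the median gene, for 46 member genes colored by role. The upper left field holds 24 of them, with Cul3 at -1.94 and 0.91 farthest to the left.

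The extremes of the intron ratio were other genes. Ube2j1 had introns at 10.4 TPM in labeled and 0.47 TPM in unlabeled RNA, 22.1-fold higher in labeled RNA, and Ube2s had 37.7 and 2.83 TPM, 13.3-fold higher. Near the other end, the introns of Ube2b were at 70.5 and 43.7 TPM, 1.61-fold higher in labeled RNA.

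The study's model of RNA dynamics starts from the level of a transcript's introns over that of its exons, taken in each library. It needs a labeled ratio under 1 that is above the unlabeled ratio, and the transcripts that meet this are called compatible. The mean exon TPM exceeded 1 and no value was 0 in 140 member transcripts of 46 genes, of 31386 transcripts of 12652 genes in the series. Introns were a smaller part of the members' RNA than of other transcripts in both libraries. In labeled RNA the members had a median of 0.325 (quartiles 0.150 and 0.667), where all transcripts had 0.570. In unlabeled RNA they had 0.0469 (quartiles 0.0208 and 0.0942), where all transcripts had 0.111. Incompatible were 27 member transcripts, or 19.3% (95% Wilson interval over transcripts 13.6 to 26.6%), beside 33.3% of all. The labeled ratio was 1 or more in 25, or 17.9%, beside 28.2% of all, and 2 lay below the diagonal, or 1.43%, beside 5.1% of all. The interval covers the number of transcripts only, and those of 1 gene overlap. The member transcripts also had a higher median mean exon level, 118 TPM beside 24.1 TPM over all transcripts. The intron to exon ratios and the incompatible shares were not compared at equal level, so a difference in level is not separated from them.

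The incompatible transcripts came from 16 genes, and in 6 of these no transcript was compatible. Ube2m had all 4 of its transcripts in this class, with intron levels of 19.9 to 91.5 TPM in labeled RNA over exon levels of 10.8 to 18.6 TPM. Ube2e2 had all 5, with labeled ratios of 6.85 to 16.6, the highest of the members, and with introns at 9.61 to 12.2 TPM in labeled and 3.70 to 3.86 TPM in unlabeled RNA. Its introns were thus present in labeled RNA at a higher level than its exons, which reached 1.43 TPM at most. The others were Ube2w, Ube2g2, Ube2cbp and Ube2t. The only transcripts below the diagonal were those of Ube2t, with ratios of 0.153 in labeled and 0.182 in unlabeled RNA for the shorter and 0.400 and 0.817 for the longer one.

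**Figure D4:**
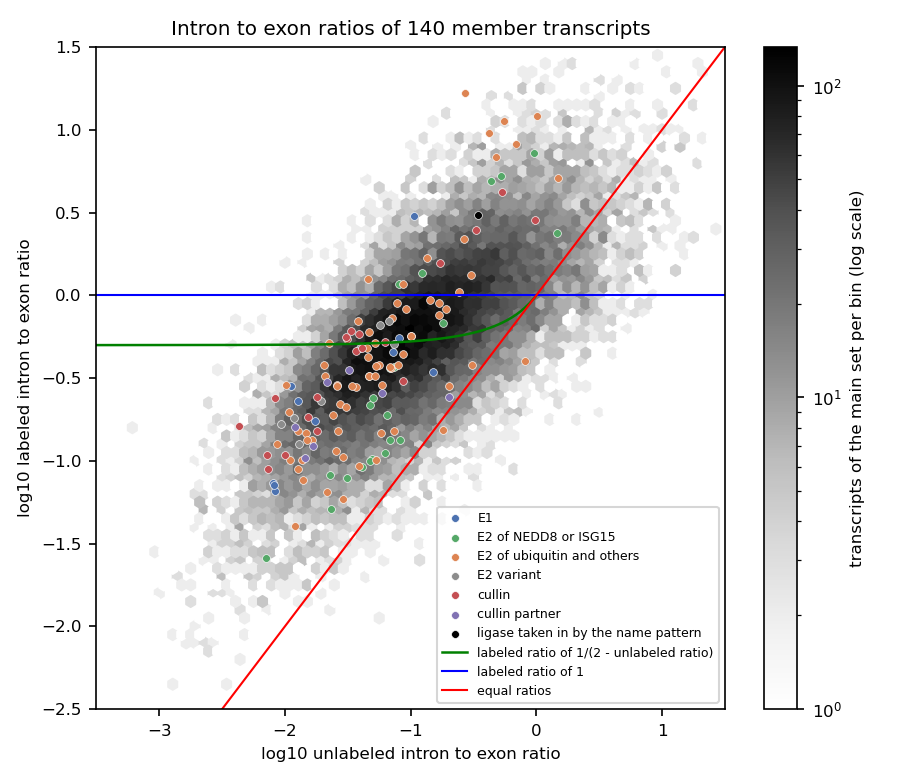
Intron to exon ratio in labeled RNA (y axis, log10) against that in unlabeled RNA (x axis, log10) for the 140 member transcripts colored by role, over the density of all transcripts of the main set in grey, with lines at a labeled ratio of 1 (blue), at equal ratios (red) and at the boundary above which the model has a unique solution (green). Of the members, 25 lie on or above the blue line and 2 below the red line.

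Among members with a mean exon level of at least 100 TPM, the labeled intron to exon ratio of the highest transcript was largest in Ube2v2 (0.662), Ube2q2 (0.601), Ube2n (0.569), Cul2 (0.563) and Cul5 (0.541). It was smallest in Ube2q1 (0.0404), Ube2a (0.0588), Uba1 (0.0713), Uba2 (0.0737) and Ube2d3 (0.0888). Unlabeled ratios reached from 0.00428 in the highest transcript of Cul3, the lowest of all member transcripts, to 1.48 in a transcript of Ube2w. Uba1, Uba2 and Cul4b followed Cul3, with 0.00818, 0.00810 and 0.00718 in their highest transcripts.

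For the 113 compatible transcripts, degradation rates were computed from both ratios and given as half-lives. An exact solution was unique in 22 of them, or 19.5%, beside 34.1% of all compatible transcripts. A pair of solutions was found in 8, or 7.08%, beside 8.63%, and none in 83, or 73.5%, beside 57.2%. For transcripts with no solution, the error was minimised with the rates tied to each other by an equation of the model. The resulting rates are not those nearest to the observed ratios when both rates are free. The members' median half-life was 26.0 min (quartiles 13.5 and 45.6), and that of all compatible transcripts was 19.0 min. With the error minimised over both rates at once, the members' median was 4.77 min. The median half-time of the processing of premature RNA was 3.14 min in members and 3.88 min in all.

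The half-lives of single genes spanned more than an order of magnitude. In the highest transcripts, the longest were 305 min for Ube2z, 107 min for Ube2h, 104 min for Ube2q1 and 84.9 min for Ube2a. The shortest were 4.05 min for Uba3, 5.57 min for Ube2d2a, 7.03 min for Ube2j2, 7.77 min for Ube2g1, 9.09 min for Ube2j1 and 9.65 min for Uba6. The cullins with a compatible highest transcript lay between 13.4 min (Cul7) and 45.6 min (Cul2), with Cul3 at 20.9 min. Half-lives and exon ratios did not run in parallel, with an r of 0.09 and a rho of 0.04 over 40 genes. These values rest on how the rates are found. When the error was minimised over both rates at once, Cul3 had 6.64 min, Rbx1 1.72 min in place of 26.5 min, and Ube2q1 5.41 min. When the second library was read as total RNA, Cul3 had 258 min and Rbx1 3.74 min. When unlabeled RNA carried over into the labeled pool was subtracted, Cul3 had 297 min and Rbx1 26.1 min. No order of half-lives among members is therefore drawn from them.

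**Figure D5:**
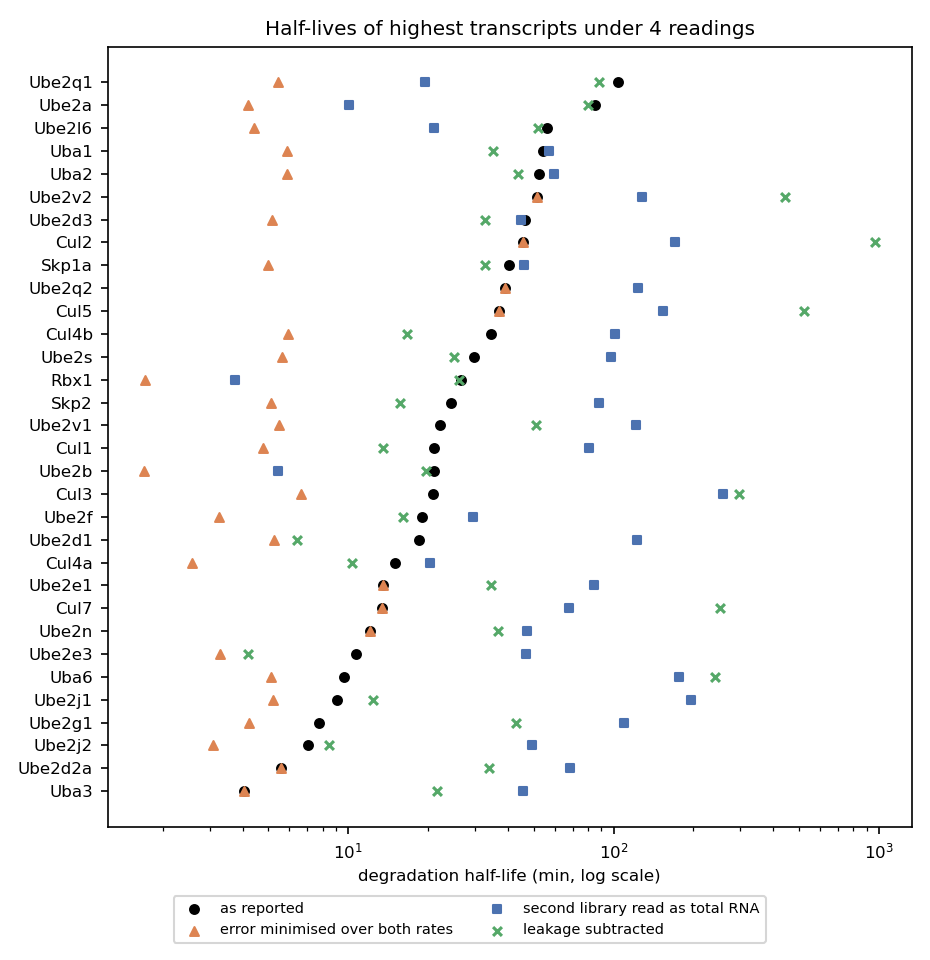
Degradation half-life in min (log axis) of the highest transcript of 32 named member genes, as reported (black circles), with the error minimised over both rates (orange triangles), with the second library read as total RNA (blue squares) and with leakage subtracted (green crosses). Readings of Cul3 reach from 6.64 to 297 min, and those of Rbx1 from 1.72 to 26.5 min.

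Isoforms of a gene mostly kept together. Of 29 member genes with several coding transcripts above a mean exon level of 10 TPM, 3 had exon ratios at least 2-fold apart, while 20.9% of all such genes had. Among them was Uba2. There, a transcript with 17 exons (ENSMUST00000102746) had 281 TPM in labeled and 338 TPM in unlabeled RNA (-0.01), and a shorter one with 5 exons (ENSMUST00000156253) had 21.9 and 69.0 TPM (-1.40). In Ube2t, the transcript with 2 exons (ENSMUST00000188177, 437 bases) had 159 and 20.7 TPM (3.20), and that with 7 exons and a longer coding sequence (ENSMUST00000027687, 1116 bases) had 109 and 34.4 TPM (1.93). Both were more than 2-fold above the median gene, and the shorter was 2.42-fold above the longer.

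Noncoding transcripts of the member genes were also quantified. Of those annotated as targets of nonsense-mediated decay, a pathway that destroys RNA with an early stop codon, 21 had a mean exon TPM above 1 and values above 0 in both libraries, and their median exon ratio was -1.0, beside -0.09 for all such transcripts. At least 2-fold below the median gene were 11 of the 21, beside 17.5% of all such transcripts, and 1 was at least 2-fold above it, beside 20.0%. The highest was a transcript of Ube2k (ENSMUST00000202601) with 1082 TPM in labeled and 2029.5 TPM in unlabeled RNA (-0.65). The highest coding transcript of that gene had 695 and 1315 TPM. The exception above the median was a 392-base transcript of Cul5 (ENSMUST00000133872) with 184 and 56.1 TPM (1.97), where the coding transcripts of Cul5 above 10 TPM lay between -1.43 and -1.19. In Cul3, a transcript of this class had 27.9 and 173 TPM (-2.37).

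Transcripts with a retained intron were spread more widely. Of 67 in member genes, 19 were at least 2-fold above the median gene, beside 34.6% of all such transcripts, and 11 at least 2-fold below it, beside 13.5%, with a median of -0.06 beside 0.40 for all. The highest of these were a Ube2k transcript (ENSMUST00000202572) with 867 and 1284 TPM (-0.31) and a Cul3 transcript (ENSMUST00000167794) with 252 and 1085 TPM (-1.85). A transcript of Ube2a (ENSMUST00000201050) had 196 and 115 TPM (1.03). These transcripts share exons with the coding transcripts of the same genes, and how RSEM divided reads between them was not tested.

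Genes that act with the members were read in the same way, from a list of 60 symbols that stand for 57 genes. These were ubiquitins, adaptors, regulators of cullins and further ligases. All 57 could be compared, with a median exon ratio of -0.14. Below the median gene were 33 of the 57, where 50.0% of all genes are. At least 2-fold above the median gene were 5 of the 57, beside 21.9% of all genes. They include Rps27a, which encodes ubiquitin fused to a ribosomal protein, with an exon ratio of 2.21, the modifiers Nedd8 (1.99) and Ufm1 (1.27), and Elob, the adaptor of Cul2 and Cul5, with 1.02. At least 2-fold below it were 14 of the 57, beside 14.8% of all genes. Families of these genes were spread over both sides. Of the receptors of Cul3 ligases, Kbtbd8, Klhl9 and Klhl13 were at -2.23, -1.91 and -1.55, and Klhl22 and Keap1 at 0.67 and 0.76. Of the Dcun1d proteins, which promote the attachment of NEDD8 to cullins, Dcun1d1, Dcun1d4 and Dcun1d3 were at -1.43, -1.24 and -0.12, and Dcun1d2 and Dcun1d5 at 0.18 and 0.61. In the COP9 signalosome, which removes NEDD8, Cops2 was at -1.46, and the other 8 subunits on the list lay between -0.62 (Cops4) and 0.57 (Cops7b), with the catalytic subunit Cops5 at 0.14. The F-box proteins Fbxw11 and Btrc, which are close relatives, were at -1.22 and 0.27. Ddb1 was at -1.15 and Cand1, which acts on the exchange of receptors, at -1.06. Also at least 2-fold below were the large ligases Ube3a (-2.37), Birc6 (-1.51) and Huwe1 (-1.24) and the UFM1 ligase Ufl1 (-1.02). Cdc34 and Rnf7, a further E2 of the cullin ligases and the relative of Rbx1, were at 0.87 and 0.90.

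The proteasome, which breaks down many of the proteins that these enzymes mark, lay on the other side of the median gene. Of 39 genes for its subunits, 8 were below the median exon ratio, where 39 of 49 members and 50.0% of all genes were. The median of the proteasome genes was 0.67, where that of the members was -0.52. At least 2-fold above the median gene were 15 of the 39, beside 4 of 49 members and 21.9% of all genes. At least 2-fold below it were 3 of the 39, beside 13 of 49 members and 14.8% of all genes. Their median labeled intron to exon ratio was 0.122 over 68 transcripts, beside 0.325 for the members. Their median half-life was 43.2 min over 59 compatible transcripts, beside 26.0 min for the members, and such values rest on how the rates are found. The gene groups were not compared at equal level or length. With 1 library per pool, no test of these differences between the gene groups was made.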

How the data were processed

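Total RNA libraries of labeled and unlabeled RNA (1 each) were made by the authors, who set aside ribosomal RNA reads, aligned the rest to exons and introns (mm10, Ensembl v91) with STAR 2.5.0 and quantified them with RSEM. The values deposited by the authors are called TPM but were treated as a score, since each column sums to 10 times a TPM total; they hold no counts, so depth and counting error are unknown. Biotypes, lengths and coding sequences were taken from GENCODE M21 (GRCm38). Members and gene lists were chosen with earlier results of these data known, and some genes that match the name pattern or a list are not reported by name here. Named were otherwise all E1s, cullins, cullin partners, E2s of other modifiers and close relatives, and, from a mean exon TPM of 100, the 5 highest and 5 lowest in exon ratio and in labeled intron to exon ratio, and genes with coding transcripts above 10 TPM that differed 2-fold; the other members were added. No pseudocount was used. Rates were found by solving the model's equation on 3998 grid points, for a labeling time of 10 min. Where it had no solution, they were taken at the minimum of its error with the rates tied to each other. Of a pair of solutions the one nearer to the median rates was kept. Leakage was set to 0.142 times the unlabeled value, the 1st percentile of the exon ratio. Scripts were tested on simulated data. Alternatives were other TPM minimums, a pseudocount of 0.1, 1 transcript per gene, other centrings, leakage, the intron ratio, other solutions and the second library as total RNA. The scripts ran in Python 3.11.15, with scipy 1.17.1, numpy 2.4.6 and pandas 2.3.3 for the values and matplotlib 3.10.9 for the plots.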

Additional observations from a re-analysis of the deposited data

How the results depend on the processing

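The members' median exon ratio was negative under every alternative that kept exon values. It ran from -0.78 without centring to -0.38 when centred on the summed exon TPM, and neither of these is relative to the median gene. When the intron ratio took its place, the members' median was 0.275. Genes at least 2-fold below numbered 11 to 19 in place of 13, with 18 after leakage was subtracted and 19 without centring, which shifted the median of all genes by 0.26. Genes at least 2-fold above numbered 2 in place of 4 with a mean exon TPM above 10 and 2 with the highest transcript only. The incompatible share was 13.2% with a mean exon TPM above 10 and 13% with 1 transcript per gene. The median half-life was 4.77 min with the error minimised over both rates and 53.7 min with the second library as total RNA. With the intron ratio in place of the exon ratio, 24 of 48 members moved from below to above the median gene and 6 from above to below. Of the genes named by rule and at least 2-fold from it, 9 changed side. By the introns of their highest transcripts, these were Cul3 (0.91), Cul4b (0.15), Cul5 (0.67), Uba6 (0.66), Ube2d1 (0.73), Ube2g1 (0.54), Ube2v1 (0.00061), Cul9 (-0.18) and Rbx1 (-0.61). Of the members added to these, Ube2h (0.30) and Ube2u (-0.05) also changed side. The coding transcript of Cul3 with 3 exons (-1.13) and the other coding transcripts of Cul4b (-0.16 and -0.20) stayed below the median transcript in introns. The remaining coding transcript of Cul3 was above it (0.87). Leakage moved Cul3 to -3.20 and left no labeled exon level in Ube2e2. The cause of these changes was not tested. Without genes that share 10% or more of their words, an alternative added after seeing the data, 11 genes were at least 2-fold below and 4 above. No paired analysis was possible because each pool has 1 library. Unknown depth limits the low genes most, and the values of Ube2u, Cul9, Ube2cbp and Ube2e2 rest on few TPM.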
